A study of Homo sapiens with 6 samples.

Results

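The genes of PI3K, AKT, mTOR and 4E-BP1 were followed in MDA-MB-453, a long-established line of HER2+ breast cancer, after *DUSP6* knockdown. The set held 8 genes of the 22807 in the deposited table, found by their gene symbols: *AKT1*, *AKT2*, *PIK3CA*, *PIK3CB*, *PIK3R1*, *PIK3R3*, *MTOR* and *EIF4EBP1*. *AKT2* and *EIF4EBP1* were chosen by their low values after knockdown in this same comparison. Their levels are therefore described without a test, and the paralogs and partners stand beside them. DUSP6 is a phosphatase that removes phosphate from the kinases ERK1 and ERK2. The comparison asked which transcripts depend on it in a HER2+ line that the study describes as resistant to HER2 inhibitors.

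RNA was sequenced in 6 libraries, 3 from cells given scrambled siRNA and 3 from cells given *DUSP6* siRNA, in the otherwise unaltered line. The study used 3 different siRNAs per group, but the siRNA behind each single library is not given. The labels do not say how the cultures behind the libraries were set up, and the p-values measure the spread between these libraries. A value below is the number of reads of a gene per 1000000 reads of the scaled library, and the libraries held 45546981 to 85729785 reads. No member had fewer than 1427 reads in any library, which puts the counting error at 2.65% of a value or less. That error covers counting only, and libraries of a group differed by more than this for most members.

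The targeted gene was read first. *DUSP6* stood at 209, 110 and 114 with scrambled siRNA and at 39.4, 24.5 and 35.2 with *DUSP6* siRNA. The knockdown libraries lay below every scrambled library, and the log2 fold change was -2.05 (SE 0.25, limma adjusted p = 3.09e-04). Of 12862 genes tested across the transcriptome, 19.7% were called higher and 24.7% lower, 44.5% in all, so a call on any one gene was common in this comparison. The summed value of 10 interferon-response genes was 144 to 186 with scrambled siRNA and 4263 to 4962 with *DUSP6* siRNA. The summed value of 10 proliferation genes went the other way, from 1987 to 2712 down to 1143 to 1348. Of these lists, 10 of 10 interferon genes were higher and 9 of 10 proliferation genes lower, and their part in the results below was not tested. The 9 markers of HER2+ luminal cells, which define the line, were all expressed, with a sum of 4262 to 5638 with scrambled siRNA and 3105 to 3304 after knockdown. Markers of fibroblasts were at a mean value below 1 for 3 of 4 genes (*COL1A2*, *COL3A1* and *PDGFRB*), and of the leukocyte genes *PTPRC* was near 0, while *CD68*, a lysosomal gene, was at 3.41 to 5.47 in every library. Of the basal epithelial genes *KRT17* rose and *TP63* fell after knockdown, by 3.06 and 1.95 on the log2 scale (limma adjusted p = 3.94e-06 and 3.39e-04), and *KRT5* and *KRT14* were at a mean below 1. The summed basal markers were at 8.75 to 16.4 with scrambled siRNA and 14.1 to 20.0 after knockdown. The summed fibroblast markers, nearly all of it *COL1A1*, were at 80.9 to 105 with scrambled siRNA and 162 to 192 after knockdown.

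In the textbook order of the pathway, a receptor such as HER2 paired with HER3 recruits class I PI3K, a dimer of a p110 catalytic subunit and a p85 type regulatory subunit. The dimer makes the lipid PIP3 at the membrane, and PIP3 brings the kinase AKT to PDPK1, which activates it. AKT releases mTOR complex 1 from its brakes, and mTOR phosphorylates 4E-BP1, so that 4E-BP1 lets go of the cap-binding protein eIF4E and translation can start. Unphosphorylated 4E-BP1 holds eIF4E back. These switches work on proteins, and the libraries measured only transcripts.

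Within the 8 genes, *AKT2* and *EIF4EBP1* stood 3.13-fold and 3.68-fold lower in the knockdown libraries, *PIK3R1* and *PIK3R3* fell by 31.9% and 33.2%, and *AKT1*, *PIK3CA*, *PIK3CB* and *MTOR* were not called. Of the 6 genes that had not been picked for their change, 2 were lower, 0 higher and 4 not called, beside the 24.7% of all tested genes called lower.

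**Figure D1:**
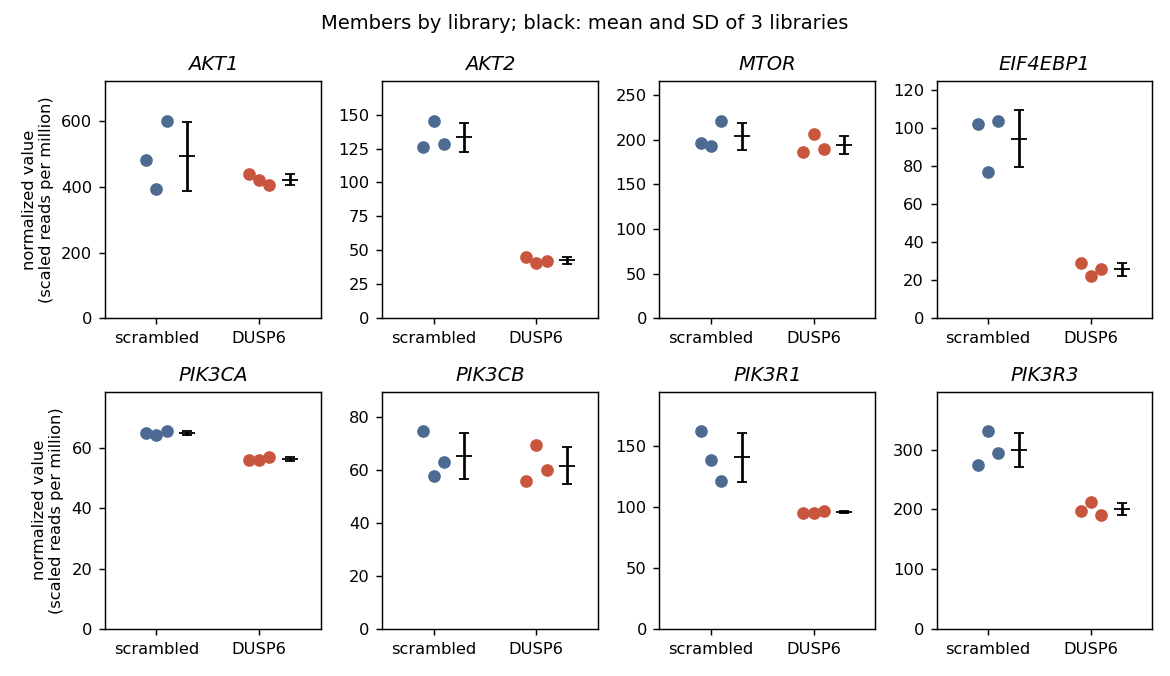
Normalized value (reads per 1000000 of the scaled library, linear axis from 0) of each of the 8 genes in the 3 scrambled (blue) and the 3 *DUSP6* siRNA (red) libraries, with the mean and SD in black. *AKT2* and *EIF4EBP1* lie far below their scrambled values, while *AKT1*, *PIK3CB* and *MTOR* overlap between groups.

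*AKT2* encodes the AKT isoform best known for its part in the response to insulin. It lies on chromosome 19 of GRCh38 at chr19:40230317-40285345, and its principal (MANE Select) transcript of 5250 bases has 14 exons that no other named gene overlaps. Its value was 126, 146 and 128 in the 3 scrambled libraries and 45.3, 40.4 and 42.2 in the 3 knockdown libraries. All knockdown libraries were low, and the highest of them was far below the lowest scrambled library. The scrambled mean was 133 ± 10.7 and the knockdown mean 42.6 ± 2.44 (SD, n = 3 each), 68.0% lower or 3.13-fold, which on the log2(value + 1) scale is -1.62 (SE 0.09). Since this is bulk RNA, fewer cells with the transcript and less transcript per cell cannot be told apart, for *AKT2* and for every gene below.

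*AKT1*, which encodes the AKT isoform tied most closely to cell survival and growth, did not share that difference. Its values were 484, 394 and 603 in the scrambled libraries and 439, 422 and 407 after knockdown. The scrambled libraries were spread widely around the knockdown ones, so the groups overlapped. The log2 fold change was -0.20 with a 95% interval from -0.53 to 0.12 (limma adjusted p = 0.278), and it was 0.04 after quantile normalization, so no direction is given. The gene lies at chr14:104769349-104795748. Scrambled library 2 held the lowest *AKT1* value and the highest *AKT2* value, and without it the log2 fold change of *AKT1* was -0.35 (limma adjusted p = 0.0401).

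Set per kilobase of the principal transcript, so that the isoforms can be compared, *AKT1* had the larger and *AKT2* the smaller level. The *AKT2* share of their sum was 12.8%, 17.2% and 10.7% in the scrambled libraries and 5.49%, 5.12% and 5.52% after knockdown. No knockdown library came near the scrambled range, but *AKT2* was picked for its low values after knockdown, so this gap is not a test. The summed level of both per kilobase went from 192 ± 33.9 in the scrambled to 151 ± 5.76 in the knockdown libraries (SD, n = 3 each). Within single libraries, where a factor common to the library largely cancels, the difference of log2(value + 1) between *AKT2* and *AKT1* was -1.93, -1.43 and -2.23 with scrambled siRNA and -3.25, -3.35 and -3.24 after knockdown. It differed by -1.42 between the group means.

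The promoters of both AKT genes are shown because one gene was low after knockdown and its paralog was not called. Each line holds the 250 bases ahead of the first annotated start site of the gene, 5′ to 3′ on its own (minus) strand, from RefSeq on GRCh38.p14. Capitals mark the GC box, GGGCGG or its reverse complement, the element that SP1 type factors are known to bind.
AKT1, chr14:104795749-104795998: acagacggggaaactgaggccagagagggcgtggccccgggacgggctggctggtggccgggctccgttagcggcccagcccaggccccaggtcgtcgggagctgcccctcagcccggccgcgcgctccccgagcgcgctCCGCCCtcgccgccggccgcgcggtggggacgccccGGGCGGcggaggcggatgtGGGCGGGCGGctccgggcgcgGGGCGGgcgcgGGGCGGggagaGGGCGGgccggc
AKT2, chr19:40285346-40285595: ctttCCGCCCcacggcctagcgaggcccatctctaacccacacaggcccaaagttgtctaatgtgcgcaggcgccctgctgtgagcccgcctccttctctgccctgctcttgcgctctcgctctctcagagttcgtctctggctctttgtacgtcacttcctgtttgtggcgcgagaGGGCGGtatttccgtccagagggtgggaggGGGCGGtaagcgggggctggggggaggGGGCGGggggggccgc
The *AKT1* window had 83.2% G and C, 39 CpG dinucleotides and 7 GC boxes, of which 2 overlap. The *AKT2* window had 66.0% G and C, 18 CpG dinucleotides and 4 GC boxes. A GC box occurred in 42.6% of 35116 such windows of all genes, so its presence in both is common. The letters of 6 other motifs were searched on both strands: TTTNNCGC (E2F type, in 5.92% of windows), CACGTG (E-box, 6.34%), CCGGAAG (ETS type, 8.52%), GTAAACA (FOXO type, 2.98%), TGACGTNA (CRE-like, 2.67%) and TGATGNAA (ATF4 and CEBP composite, 3.14%). None of these 6 was found in either window, and variants of these letters were not searched. Promoter entries were matched for 7 of the 8 genes, in 18 windows. The first window of *PIK3CA* held the E2F, ETS and FOXO type letters, 1 window of *PIK3R1* held the ATF4 and CEBP composite, and the windows of *PIK3R3*, *PIK3CB* and *MTOR* held none of these 6. A match is a description of letters and not a measured site.

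*EIF4EBP1* encodes 4E-BP1, the repressor of cap-dependent translation, and lies at chr8:38030534-38060365 with a principal transcript of 827 bases in 3 exons. Its value was 102, 77.2 and 104 with scrambled siRNA and 28.9, 22.0 and 26.1 after knockdown. Every knockdown library was far below the lowest scrambled library, scrambled library 2. The mean went from 94.5 ± 15.0 (SD, n = 3) to 25.7 ± 3.45 (SD, n = 3), 72.8% or 3.68-fold lower. The log2 fold change was -1.84 (SE 0.14).

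The closest paralog, *EIF4EBP2*, which encodes the 4E-BP known best from neurons, also fell, with a log2 fold change nearer to 0. It had 322, 262 and 281 with scrambled siRNA and 183, 195 and 184 after knockdown, without overlap. The log2 fold change was -0.62 (SE 0.10, limma adjusted p = 0.00123). *EIF4EBP3* was at 0.0893 to 0.294 in every library, was not tested, and shares 73.2% of its exon bases with the readthrough gene *ANKHD1-EIF4EBP3*, so that its value is uncertain. *EIF4E*, the cap-binding protein that the 4E-BPs hold, had 127, 100 and 104 with scrambled siRNA and 111, 123 and 115 after knockdown, with overlap. Its log2 fold change was 0.08 with a 95% interval from -0.16 to 0.33 (limma adjusted p = 0.552).

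Per kilobase, *EIF4EBP1* was the main 4E-BP transcript of the scrambled cells and came close to parity with *EIF4EBP2* after knockdown. Its share of the 4E-BP sum was 74.1%, 72.7% and 76.9% with scrambled siRNA and 58.5%, 50.3% and 55.9% after knockdown. The 2 groups did not overlap, and the sum itself was 153 ± 21.2 (SD, n = 3) per kilobase before and 56.3 ± 3.36 (SD, n = 3) after. Since *EIF4EBP1* was picked for its low values after knockdown, these differences and the ratio that follows are descriptions and not tests. The per-kilobase ratio of *EIF4EBP1* to *EIF4E* was 2.37, 2.26 and 2.93 in the scrambled libraries and 0.762, 0.525 and 0.667 in the knockdown libraries. Transcripts of *EIF4EBP1* alone thus outnumbered those of *EIF4E* in each scrambled library and in none of the knockdown libraries. The whole 4E-BP sum, which includes *EIF4EBP2*, was still 59.6, 52.9 and 56.5 per kilobase after knockdown. *EIF4E* was then at 47.9 ± 2.51 (SD, n = 3) per kilobase. These are levels of transcript, and how much of the protein was phosphorylated was not measured here.

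**Figure D2:**
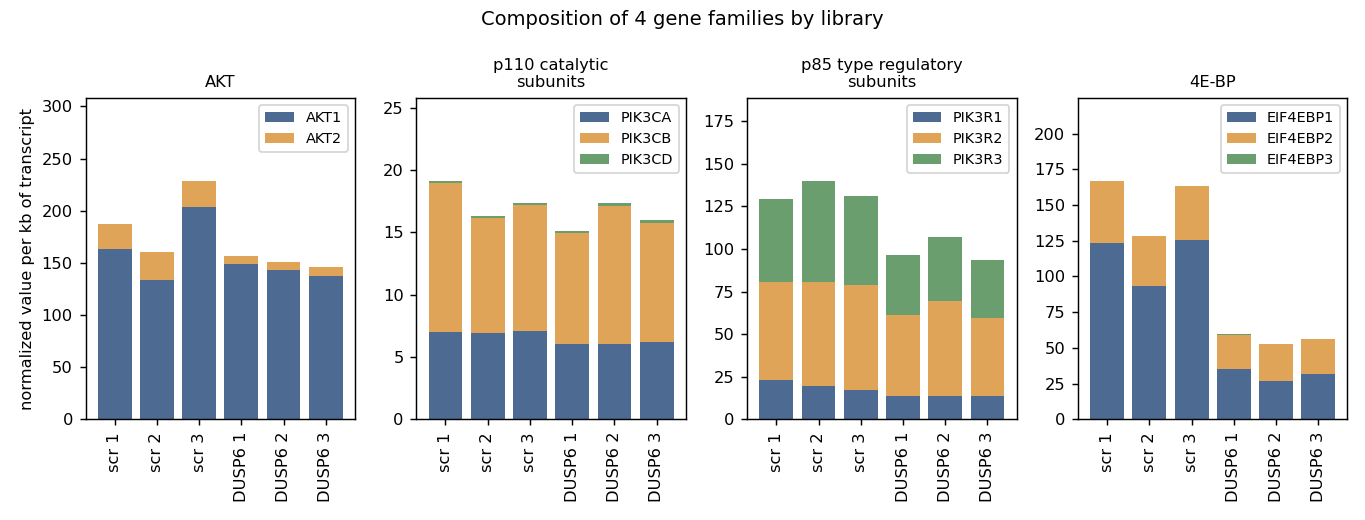
Normalized value per kilobase of principal transcript (linear axis, stacked bars) of the AKT, p110, p85 type and 4E-BP genes in each of the 3 scrambled (scr) and 3 *DUSP6* siRNA libraries. The *AKT2* layer thins above *AKT1* bars that overlap between groups, the 4E-BP bars shrink from 128 to 167 down to 52.9 to 59.6, and the p110 bars overlap between groups.

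The catalytic subunits of PI3K differed little. *PIK3CA* encodes p110-alpha, the subunit most used by HER2 and HER3, and lies at chr3:179148126-179240093. Its values were 64.9, 64.1 and 65.5 with scrambled siRNA and 55.9, 56.1 and 57.1 after knockdown. The knockdown values were all below the scrambled ones, as was the case for 31.1% of all tested genes (26.7% were all above, 57.8% in all), and the coefficient of variation was 1.07% and 1.13%. The log2 fold change was -0.20 with a 95% interval from -0.38 to -0.02, and after adjustment it missed the threshold (limma adjusted p = 0.0709). With no filter on low values it passed (limma adjusted p = 0.0455, and up to 0.295 over the alternatives). Of its exon bases, 36.8% lie across *KCNMB3* on the opposite strand, and reads there are uncertain because the default counting ignores strand.

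*PIK3CB* encodes p110-beta, the subunit that G protein-coupled receptors also use, at chr3:138652698-138834928. It had 74.5, 57.8 and 63.1 with scrambled siRNA and 55.6, 69.2 and 59.8 after knockdown. The libraries of both groups were mixed in order. The log2 fold change was -0.08 with a 95% interval from -0.36 to 0.20 (limma adjusted p = 0.619), and its sign turned to 0.01 after quantile normalization. *PIK3CD*, the p110-delta of leukocytes, had a mean of 0.993 ± 0.167 (SD, n = 3) before and 1.15 ± 0.108 (SD, n = 3) after (log2 fold change 0.11, 95% interval from -0.14 to 0.37, limma adjusted p = 0.440). That sign also turned, to -0.04, after quantile normalization. *PIK3CG* was not analysed here. Per kilobase, *PIK3CB* made up 59.0% ± 3.01 of these 3 catalytic transcripts before and 60.8% ± 2.64 after knockdown (SD, n = 3 each).

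All 3 measured genes of p85 type regulatory subunits were called lower, 1 of them narrowly, beside 24.7% of all tested genes. *PIK3R1*, at chr5:68215756-68301821, encodes p85-alpha, which holds p110 stable and inactive until a receptor binds it. It had 162, 138 and 122 with scrambled siRNA and 95.0, 95.4 and 96.7 after knockdown. The knockdown libraries were nearly identical and below all the scrambled ones, and it fell by 0.54 on the log2 scale (SE 0.11, limma adjusted p = 0.00432). *PIK3R3*, at chr1:46040140-46174901, encodes the shorter p55-gamma, and had 274, 331 and 294 with scrambled siRNA and 198, 212 and 191 after knockdown. It fell too, without overlap, by 0.58 on the log2 scale (SE 0.10, limma adjusted p = 0.00166). In its case 23.1% of the exon bases lie in the readthrough gene *P3R3URF-PIK3R3*, so part of the value is uncertain. Both calls held under each of the 14 alternatives, at adjusted p values up to 0.0233 for *PIK3R1* and 0.0146 for *PIK3R3*.

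*PIK3R2*, which encodes p85-beta, had 227, 242 and 244 with scrambled siRNA and 190, 221 and 182 after knockdown. It passed narrowly (log2 fold change -0.27, SE 0.10, limma adjusted p = 0.0490), and the call was lost under 10 of the 14 alternatives, with -0.08 (limma adjusted p = 0.501) after quantile normalization and limma adjusted p values of 0.0560 to 0.211 without any 1 library but knockdown library 2. The per-kilobase sum of the 3 regulatory transcripts was 129, 140 and 131 with scrambled siRNA and 96.7, 107 and 93.8 after knockdown. The 2 ranges did not overlap. Over the catalytic sum, that level gave ratios of 6.78, 8.56 and 7.55 in the scrambled libraries and 6.40, 6.18 and 5.88 in the knockdown libraries. *PIK3R3* and *PIK3R1* kept their proportion to each other, with a difference of log2(value + 1) of 1.09 ± 0.29 (SD, n = 3) before and 1.06 ± 0.08 (SD, n = 3) after.

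*MTOR*, the kinase at the core of both mTOR complexes, lies at chr1:11106535-11262551. It had 197, 193 and 221 with scrambled siRNA and 186, 206 and 190 after knockdown, and the groups overlapped. The log2 fold change was -0.07 with a 95% interval from -0.28 to 0.14 (limma adjusted p = 0.563), and it was 0.11 after quantile normalization. A fall as deep as that of *AKT2*, a gene picked for its fall, thus lies outside the intervals of *AKT1*, *PIK3CA*, *PIK3CB* and *MTOR*. Their lower limits were -0.53, -0.38, -0.36 and -0.28, and small falls down to these limits are not excluded.

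**Figure D3:**
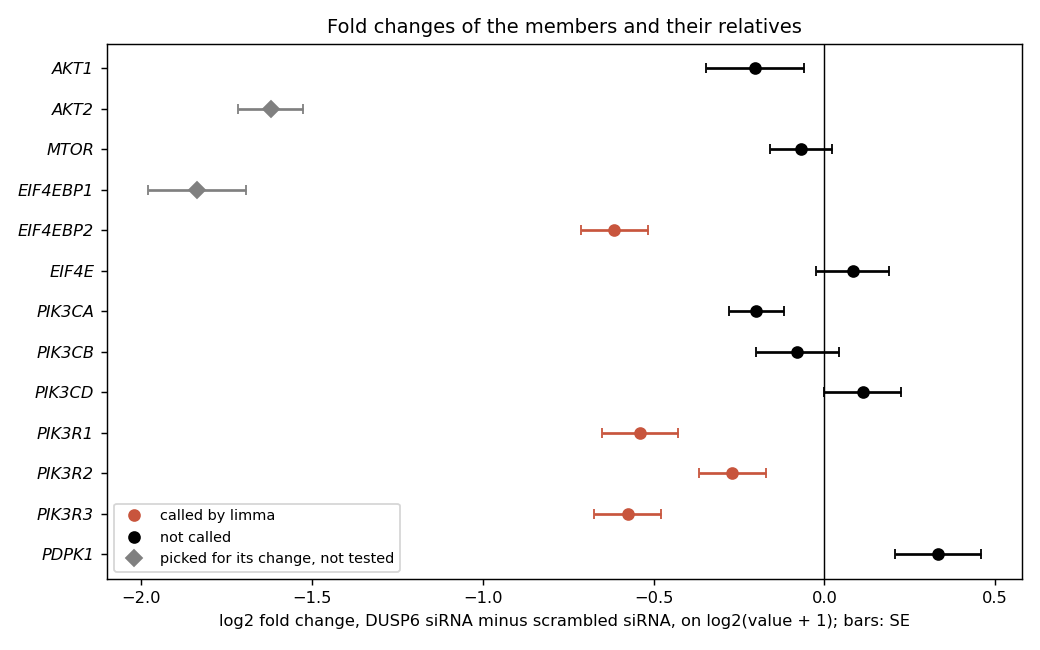
Log2 fold change of *DUSP6* siRNA over scrambled siRNA on the log2(value + 1) scale, with the standard error, for the 8 genes and 5 relatives. Grey diamonds mark *AKT2* (-1.62) and *EIF4EBP1* (-1.84), which were picked for their change, red marks genes called by limma and black those not called.

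Taken per kilobase of transcript, the order of the 8 genes shifted with knockdown only through *AKT2* and *EIF4EBP1*. Both had been picked for their low values after knockdown, and the other genes kept their order. In the scrambled libraries *AKT1* led with 167 ± 35.5 (SD, n = 3), ahead of *EIF4EBP1* at 114 ± 18.2 and *PIK3R3* at 53.6 ± 5.14. *AKT2* at 25.4 ± 2.03, *MTOR* at 23.4 ± 1.76 and *PIK3R1* at 20.2 ± 2.92 followed, each overlapping with the next, and *PIK3CB* at 10.4 ± 1.36 and *PIK3CA* at 7.00 ± 0.0750 came last. Against 11513 tested genes with a known transcript length, *AKT1* was at the 97.6th percentile, *EIF4EBP1* at the 95.6th, *AKT2* at the 75.0th and *PIK3CA* at the 38.7th. After knockdown *EIF4EBP1* was at 31.0 ± 4.17, within the range of *PIK3R3* at 35.8 ± 1.84. *AKT2* was at 8.12 ± 0.464, below *PIK3CB* at 9.83 ± 1.11 and above *PIK3CA* at 6.09 ± 0.0685. The spread was larger among scrambled libraries than among knockdown libraries for 7 of the 8 genes, and for 78.8% of all tested genes.

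The rest of the pathway was read from 10 lists of 97 genes beside the 8, of which 94 were in the table and 86 were tested. Of these, 14 were higher, 25 lower and 47 not called, or 16.3% and 29.1%, against 19.7% and 24.7% of all tested genes. The median log2 fold change was -0.07, against -0.01 over all genes. The balance turned with the scaling, since quantile normalization gave 23 higher and 21 lower, 52.3% of calls higher in place of 35.9%. The balance over all tested genes turned as well, to 50.6% of calls higher in place of 44.4%. The lists as a whole were therefore close to the background, and the values that follow belong to single genes.

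At the receptor, 2 of 7 tested adaptor genes were higher and 1 lower, beside 19.7% and 24.7% of all tested genes. *GAB1*, a docking protein that brings PI3K to receptors, went from 72.8 ± 6.70 (SD, n = 3) to 37.5 ± 1.32 (SD, n = 3), -0.93 on the log2 scale (limma adjusted p = 1.29e-04). Its relative *GAB2* went the opposite way, from 12.0 ± 2.11 to 20.5 ± 1.71 (SD, n = 3 each), at 0.73 (limma adjusted p = 0.00264). *INSR*, the insulin receptor, was called higher at 0.41 (limma adjusted p = 0.0349), a call that 7 of the 14 alternatives lost, among them leaving out any library but scrambled 1 (limma adjusted p from 0.0593 to 0.129). *PDPK1*, the kinase that activates AKT, was not called, with means of 142 ± 20.1 and 179 ± 19.9 (SD, n = 3 each) and a log2 fold change of 0.33 (95% interval 0.05 to 0.62, limma adjusted p = 0.0582). It passed in 4 of the alternatives, among them edgeR's quasi-likelihood test (adjusted p = 0.0411) and leaving out scrambled library 3 (limma adjusted p = 0.0210).

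Among the phosphatases and other brakes on PI3K and AKT, 5 of 10 tested genes were lower and 0 higher, beside 24.7% and 19.7% of all tested genes. The deepest fall was that of *INPP5J*, an inositol 5-phosphatase that acts on PIP3, which had 153, 223 and 182 with scrambled siRNA and 40.4, 27.2 and 31.8 after knockdown. That is -2.45 on the log2 scale (SE 0.17, limma adjusted p = 1.50e-05), beyond the difference of *AKT2*. *INPP4B*, which removes phosphate from the next lipid in the chain, was low throughout and fell from 2.06 ± 0.642 to 0.654 ± 0.0797 (SD, n = 3 each), at -0.87 (limma adjusted p = 0.00195). The AKT phosphatases *PHLPP2* and *PHLPP1* fell by 0.53 and 0.37 on the log2 scale, and *INPP5K* by 0.47.

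Around mTOR, 2 of 9 tested complex subunits were higher and 3 lower, beside 19.7% and 24.7% of all tested genes. *RPTOR* and *RICTOR*, the scaffolds that define mTOR complexes 1 and 2, rose by 0.66 and 0.60 on the log2 scale (limma adjusted p = 0.00790 and 0.00596). *DEPTOR*, an inhibitor of mTOR, fell by 0.70 (limma adjusted p = 0.00613), *MLST8* by 0.35 and *TTI1*, a chaperone for such kinases, by 0.34. *DEPTOR* and *MLST8* share 9.61% and 12.0% of their exon bases with other genes, which makes their values uncertain, and the *MLST8* call was lost without knockdown library 2 or 3 (limma adjusted p = 0.0701 and 0.0924). Upstream, *RHEBL1*, a relative of the GTPase that switches mTOR complex 1 on, rose by 0.80 and *TSC2*, its inhibitor, by 0.25 (limma adjusted p = 0.00285 and 0.0417). Of the 6 tested genes of that group, 2 were called higher and 0 lower, beside the same shares of all tested genes. The *TSC2* call was lost in 7 of the 14 alternatives, among them leaving out any library but scrambled 3 (limma adjusted p from 0.0696 to 0.143), and 12.2% of its exon bases overlap *PKD1*.

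In the amino acid branch, 7 of 21 tested genes were higher and 3 lower, beside 19.7% and 24.7% of all tested genes. *SESN2*, a leucine sensor that restrains mTOR complex 1, had 35.0, 36.0 and 56.9 with scrambled siRNA and 92.9, 83.8 and 102 after knockdown, a rise of 1.14 on the log2 scale (limma adjusted p = 0.00107). *SAMTOR*, the sensor of S-adenosylmethionine, rose by 0.84 (limma adjusted p = 0.00260). *CASTOR1*, an arginine sensor with the same restraining role, fell from 18.1 ± 2.61 to 7.21 ± 0.952 (SD, n = 3 each), at -1.21 (limma adjusted p = 2.14e-04). The GTPase gene *RRAGA* fell by 0.81 (limma adjusted p = 0.00199) and *FNIP2* by 0.53. Genes of the same role thus moved in both directions.

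Below mTOR, the S6 kinase group had 2 of 6 tested genes lower, *RPS6* and *RPS6KB2*, both at -0.36 (limma adjusted p = 0.0112 and 0.00695), and 0 higher. *RPS6* encodes the ribosomal protein that S6 kinases modify, and its call was lost after quantile normalization and without knockdown library 2 (limma adjusted p = 0.158 and 0.0537). Of *RPS6KB2*, 27.1% of the exon bases are shared with an antisense gene. Of the 10 tested genes of eIF4F and the other 4E-BPs, 3 were lower and 0 higher. Beside both groups stand 24.7% lower and 19.7% higher of all tested genes. *EIF4G3*, a scaffold of the cap-binding complex, had 192, 194 and 187 with scrambled siRNA and 84.5, 75.6 and 83.2 after knockdown. That fall of -1.23 (SE 0.08, limma adjusted p = 1.47e-05) was deeper than those of *EIF4EBP2* and of *EIF4G1* (-0.41), the more widely used scaffold.

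**Figure D4:**
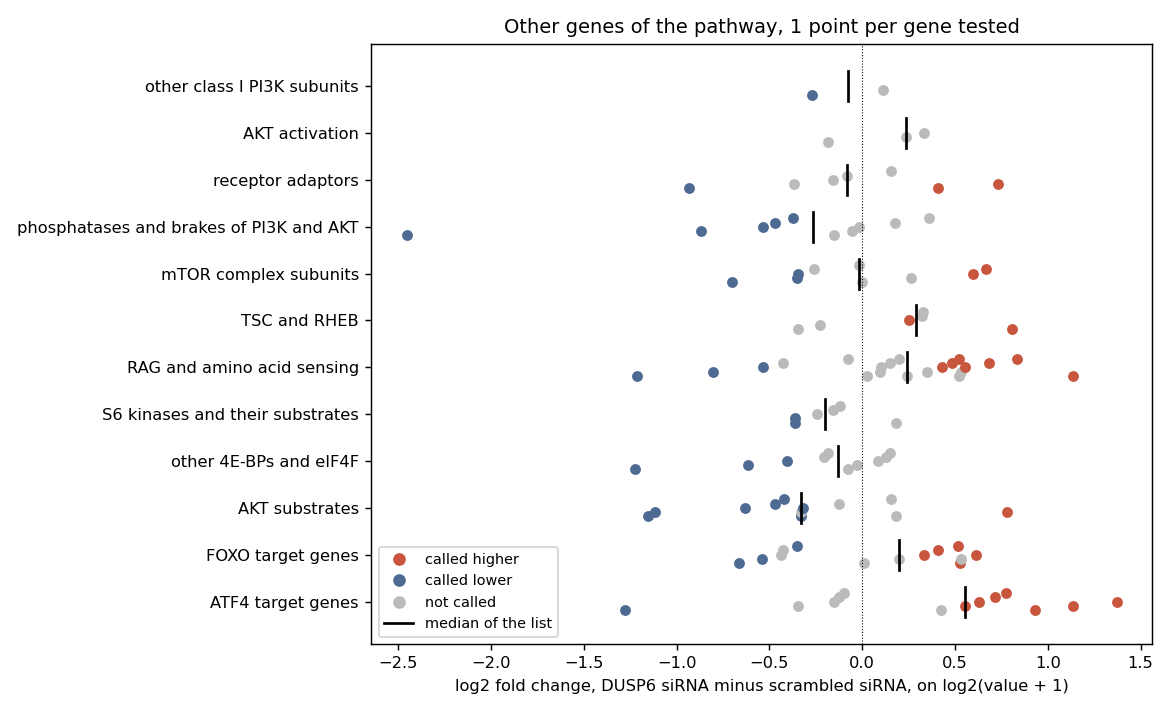
Log2 fold change of each tested gene of the pathway lists and of the FOXO and ATF4 target lists (1 point per gene, members left out), with the median of each list as a black bar. Some lists hold points called higher (red) and points called lower (blue), while others hold calls in a single direction or none. The lowest point is *INPP5J* at -2.45 and the ATF4 list has the highest median at 0.55.

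Among 12 tested genes that encode substrates of AKT, 7 (58.3%) were lower and 1 (8.33%) higher, with a median of -0.33. Of all tested genes, 24.7% were lower and 19.7% higher. *FOXO6* and *FOXO4*, forkhead transcription factors that AKT phosphorylates, fell by 1.16 and 1.12 on the log2 scale (limma adjusted p = 0.00104 and 9.29e-05). *PFKFB2*, a glycolytic regulator, rose by 0.78 (limma adjusted p = 0.00547). The transcripts of genes that FOXO factors are known to activate were read as well: of 13 tested, 5 (38.5%) were higher and 3 (23.1%) lower, beside 19.7% and 24.7% of all tested genes, with a median of 0.20. *BCL2L11*, the apoptosis inducer BIM, rose by 0.62 and the repressor *BCL6* by 0.52 (limma adjusted p = 0.0101 and 0.00486). *ERBB3*, the HER3 receptor, fell by 0.66 and the ubiquitin ligase subunit *FBXO32* by 0.54 (limma adjusted p = 8.77e-04 and 0.00809). The remaining calls were *CITED2*, *INSR* and *TXNIP* higher and *CCNG2* lower.

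*EIF4EBP1* is also a known target of ATF4, the factor of the amino acid stress response, so the other ATF4 targets were set beside it. Of 13 tested, 7 (53.8%) were higher and 1 (7.69%) lower, beside 19.7% and 24.7% of all tested genes, with a median of 0.55 against -0.01. *ATF3* rose by 1.37 on the log2 scale and *SESN2* by 1.14 (limma adjusted p = 2.60e-04 and 0.00107). The 1 that fell was *ATF5*, at -1.28 (limma adjusted p = 1.27e-04), with 13.5% of its exon bases shared with *NUP62*. *EIF4EBP1*, at -1.84, had a deeper fall than any tested gene of the list. It had been picked for its fall, so its place below them is not a test.

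Chromosome neighbours were compared because position had no part in the choice of genes. The 5 nearest tested genes on each side of *AKT2* span 473 kb, and 5 of the 10 were higher, 1 lower and 4 not called, beside 19.7% and 24.7% of all tested genes called higher and lower. The 1 that fell, *C19orf47*, is the nearest of all, 7609 bases beyond the *AKT2* start. It had 41.8, 56.6 and 46.8 with scrambled siRNA and 23.6, 24.0 and 20.9 after knockdown, -1.04 on the log2 scale (SE 0.13, limma adjusted p = 2.86e-04). *MAP3K10*, 14742 bases away on the other side, rose by 0.84 (SE 0.12, limma adjusted p = 5.93e-04). Around *EIF4EBP1*, 10 genes span 537 kb, with 1 higher (*ERLIN2*), 1 lower (*DDHD2*) and 8 not called. The nearest on either side were *RAB11FIP1* (0.14, limma adjusted p = 0.440) and *ASH2L* (0.16, limma adjusted p = 0.197). Neither was called, though *ASH2L* passed after quantile normalization (0.27, limma adjusted p = 0.0399). No neighbour shown in that stretch fell as far as *EIF4EBP1*, which had been picked for its fall.

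**Figure D5:**
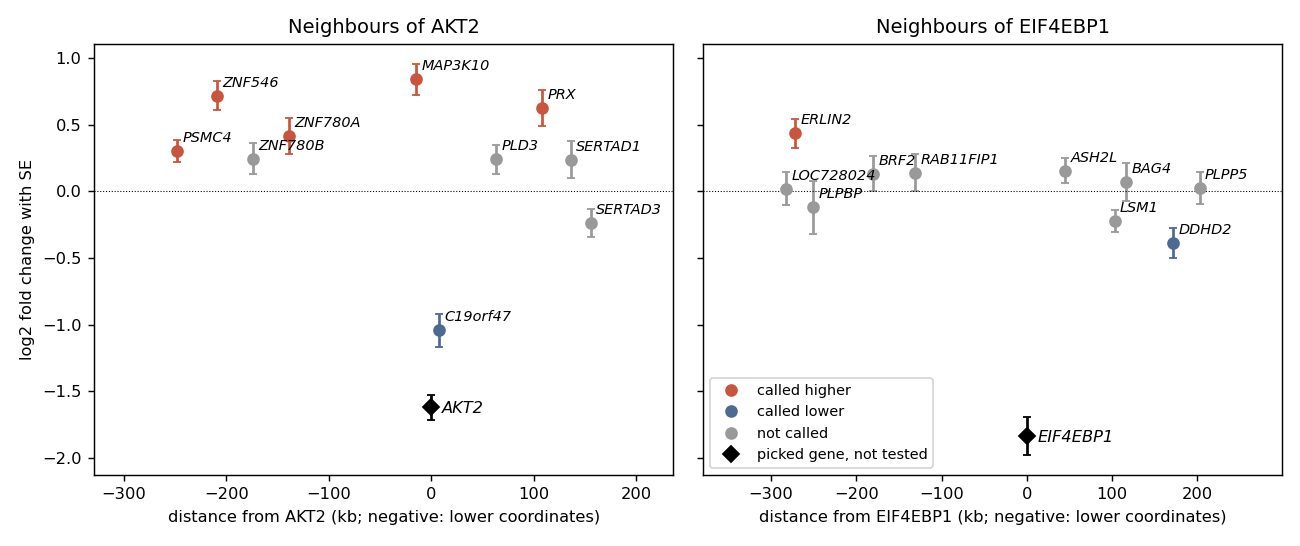
Log2 fold change with its standard error of the 5 nearest tested genes on each side of *AKT2* and of *EIF4EBP1* (black diamonds), by distance in kb. Beside *AKT2* only *C19orf47* (-1.04) is called lower and 5 genes are called higher, and the neighbours of *EIF4EBP1* lie between -0.39 and 0.44.

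Finally, the genes with the profile most like each of the picked genes were listed, by the root mean square difference of the centred log2(value + 1) over the 6 libraries. For *AKT2* these were *MAP3K20*, *CD82*, *EPN3*, *SS18* and *RAB3D*, at differences of 0.0735 to 0.0812, and *EIF4EBP1* was the 187th. For *EIF4EBP1* they were *CAB39L*, *RCC1*, *RAD23B* and *TMEM106A*, at 0.0811 to 0.109, and *AKT2* was the 72nd. *RAB3D*, as an example, had 217, 230 and 234 with scrambled siRNA and 84.5, 74.5 and 78.1 after knockdown. The likeness rests on 6 libraries in 2 groups, so genes of a like fold change rank high.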

How the data were processed

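RNA-seq of 6 MDA-MB-453 libraries was used. The authors prepared libraries with a stranded mRNA kit, aligned reads to hg38 with Rsubread 2.0.0 and assigned them to RefSeq gene models with default settings, which ignore strand. The deposited table holds 1 normalized signal value per gene and library. Dividing by 1 step per library gave whole reads for 100% of values (relative tolerance 1e-06), and the steps equal those of CPM with edgeR's TMM scaling.

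The deposited signal was transformed to log2(value + 1), with the base set here. The 12862 genes with a mean of at least 1 were tested with limma 3.58.1 (R 4.3.3, eBayes with trend), with Benjamini-Hochberg adjustment over all of them and calls at an adjusted p under 0.05. All 22807 rows were kept by Entrez ID, 349 of them without a symbol. Fold changes on this scale understate those of low genes. Levels between genes were divided by the length of the MANE Select transcript (GENCODE 44), and exon overlaps were counted against its named genes. limma and edgeR 4.0.16 were checked on simulated data.

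The members and gene lists were chosen with earlier results of these data known. Named genes are the members, *DUSP6*, a fixed set of relatives, up to 2 called genes with the largest rise and fall per list, the nearest neighbours of *AKT2* and *EIF4EBP1* and the 5 genes most like each. Other genes were named after their values were seen, and some items under this rule are not reported here. Results were recomputed with edgeR's quasi-likelihood fit to the recovered whole reads, with each library left out, with quantile normalization or median-of-ratios scaling, with the replicate number as a block, without the eBayes trend, with a pseudocount of 0.1, and with no filter or a mean of at least 10.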

Additional observations from a re-analysis of the deposited data

How the results depend on the processing

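*AKT2* ranged from -1.66 to -1.56 and *EIF4EBP1* from -1.97 to -1.73 on the log2 scale with 1 library left out, and *AKT2* was -1.51 after quantile normalization. The *DUSP6* fold change ranged from -2.22 to -1.76 with 1 library left out. Of the 6 other members, 2 to 3 were called with 1 library left out. Over all genes, 1639 were higher at a mean of at least 10, and 1574 to 3183 with 1 library left out, the fewest without *DUSP6* knockdown replicate 2. Pathway genes called higher were 23 after quantile normalization, beside 2958 of all tested genes. With 1 library left out they were 9 to 21, again fewest without *DUSP6* knockdown replicate 2. Called FOXO targets (8 in all) were 5 to 8, with 5 without *DUSP6* knockdown replicate 1 or 2. The 8 called neighbours became 5 at a mean of at least 10 and ranged from 5 to 12 with 1 library left out, with 5 without any one of the knockdown replicates and 12 as the most. The signs of *AKT1* (0.0429), *MTOR* (0.114), *PIK3CB* (0.00672) and *PIK3CD* (-0.0371) turned after quantile normalization. *PIK3CB* ranged from -0.166 to 0.02 and *RAB11FIP1* from -0.0168 to 0.275, turning only without scrambled replicate 1 and scrambled replicate 3. The cause was not tested.

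Same-numbered libraries did not deviate together over all tested genes (correlations of 0.005, 0.087 and -0.076), and not every library correlated best with its own number. With 3 libraries per group this cannot exclude a pairing, so none was assumed. Under the replicate block, limma adjusted p values moved both ways. *DUSP6* was at 8.38e-07 in place of 3.09e-04, and *PIK3CA* at 0.163 in place of 0.0709. With the replicate block, 2495 genes were higher and 3096 lower, 2 of the 6 members were called and the pathway counts were 18 higher and 26 lower. Depth does not limit the members, but *EIF4EBP3* rests on too few reads for a test.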
